A study of Mus musculus with 25 samples.

Results

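The genes examined here are 10 genes of myoblast fusion, named for their known roles in this process. They are *Mymk*, *Mymx*, *Jam2*, *Jam3*, *Kirrel*, *Nphs1*, *Cdh2*, *Dysf*, *Myof* and *Cdon*, out of 26180 genes with a curated RefSeq transcript, of which 21000 are protein-coding. All 10 were found on mm10, with 18 curated transcripts that begin at 14 distinct transcription start sites (TSSs). For each gene, all peaks of Spin1 and of H3K4me3 were collected at the promoter (TSS±1 kb of any curated transcript), in the rest of the gene and in 50 kb on each side.

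Skeletal muscle fibers form when mononucleated myoblasts recognise each other, adhere, remodel their actin cortex and merge their plasma membranes. Myomaker, a membrane protein with several transmembrane segments, and myomerger, a micropeptide, carry out the membrane steps of this process, and both are largely restricted to muscle that is forming or repairing fibers. Adhesion proteins of the immunoglobulin and cadherin families bring the cells together, and ferlins act in calcium-dependent membrane traffic and repair. H3K4me3, the trimethylated lysine 4 of histone H3, marks the starts of active and many poised genes, and Spin1 is a protein that reads this mark.

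The peaks came from primary myoblasts of C57BL/6 mice (C57BL/6 N in the study's methods), isolated by preplating, a step in which fibroblasts attach first and are left behind, from the limbs of animals aged 10 days and kept below confluence. Of the 25 samples in the series, 2 were used, namely 1 ChIP-seq library with a custom Spin1 antibody and 1 with an antibody against H3K4me3 (written as H3K4me in the antibody label). The cells carried no engineered allele or treatment according to the labels. Input DNA served as the control in peak calling. Neither the input library itself nor the 22 libraries of RNA were analysed here, so that no value below measures expression.

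The Spin1 list held 17106 peaks and the H3K4me3 list 30763. The MACS score of a peak, its p-value against the input expressed as the negative log10 and multiplied by 10, grows with peak width and sequencing depth. Scores pile up at 3100, a value reached or passed by 30.9% of peaks in the Spin1 list and by 45.2% in the H3K4me3 list, so that peaks at 3100 cannot be ranked. The smallest scores were 50.66 and 50.03. The lists contain no read counts, the depth of the libraries is unknown, and without replicates no test between the libraries was possible. Promoter peaks of marker genes were compared with the label of the cells. All 10 myoblast markers examined, *Pax7*, *Myf5* and *Myod1* among them, had both peaks, compared with 56.7% of all protein-coding genes. Of 7 fibroblast markers, 4 (*Pdgfra*, *Col1a1*, *Col1a2*, *Twist2*) had both peaks, close to the share of all genes, and 3 had H3K4me3 only. None of 5 endothelial, 4 blood and 4 neuronal markers had Spin1. H3K4me3 without Spin1 was found at 3 of the endothelial, 1 of the blood and all 4 neuronal markers, and at 11.3% of all protein-coding genes. Of 5 markers of mature fibers, *Acta1* had both peaks, *Ckm*, *Myh1* and *Pvalb* had H3K4me3 only, and *Myh4* had neither. Whether fibroblasts or differentiating cells in the culture contributed to the peaks at the fusion genes was not tested.

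Spin1 and H3K4me3 were both present at the promoters of 8 of the 10 fusion genes, and neither was present at the curated promoters of *Nphs1* and *Cdon*. Thus 8 genes had a Spin1 peak, compared with 56.7% of all protein-coding genes, and the same 8 had an H3K4me3 peak, compared with 68.0%. Both peaks together were found at 56.7% of all protein-coding genes. No fusion gene had H3K4me3 at 1 or more starts and Spin1 at none, a state found at 11.3% of protein-coding genes. A single start of *Dysf* had H3K4me3 alone. These shares describe 1 library per antibody and were not tested.

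**Figure D1:**
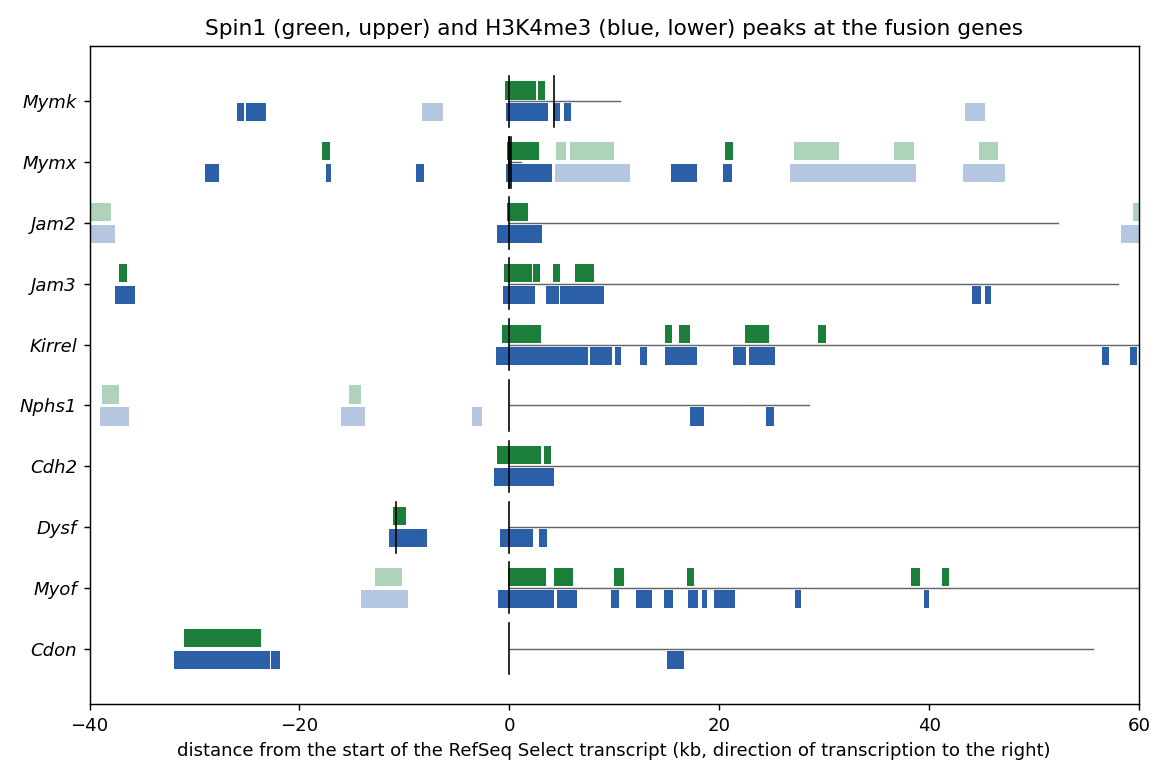
Spin1 peaks (green, upper row of each gene) and H3K4me3 peaks (blue, lower row) at the 10 fusion genes, plotted by distance in kb from the start of the RefSeq Select transcript, with transcription to the right. Vertical lines mark curated starts, grey lines the genes, and pale bars peaks in the flanks that overlap the promoter of another gene; peaks beyond the plotted range are not drawn. Both colours meet the start of 7 genes and the upstream start of *Dysf*, while *Nphs1* and *Cdon* are bare at theirs.

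*Mymk* encodes myomaker. Its main start lies at position 27072161 of chromosome 2, on the minus strand. The Spin1 peak chr2:27069649-27072561 covered this start with a width of 2913 bp and a score of 3100. It was wider than the peaks of 72.8% of the protein-coding genes with a Spin1 promoter peak. The H3K4me3 peak chr2:27068475-27072486 was 4012 bp wide, with a score of 3100, and stood at the 68.7th percentile of widths. Both peaks were lopsided, with the Spin1 peak reaching 400 bp upstream and 2512 bp downstream into intron 1. *Mymk* was the only member in which Spin1 passed beyond H3K4me3, by 75 bp at the upstream edge, so that 97.4% of the Spin1 peak lay under the mark.

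A second curated transcript of *Mymk* starts at position 27067868, inside the gene. No Spin1 peak covered this start. A narrow Spin1 peak, chr2:27068731-27069391, lay upstream of it, less than 1 kb away, with a width of 661 bp and a score of 109.72. It lay wholly under the H3K4me3 peak of the main start, which ends within 1 kb of this second start without covering it. The mark over the second start itself was a 611 bp peak that scored 55.74, and a 681 bp peak downstream scored 65.75. No Spin1 peak was called in the 50 kb on either side of *Mymk*, whereas 5 H3K4me3 peaks were. Of these, 3 overlapped the promoters of *Cacfd1*, *Slc2a6* and *Adamtsl2*, and the remaining pair, chr2:27095352-27097229 and chr2:27097427-27098092, lay upstream of the gene with scores of 440.93 and 50.85.

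*Mymx* encodes myomerger and spans only 1.136 kb on the minus strand of chromosome 17. Its 3 curated starts lie between positions 45601915 and 45602102, and a single pair of peaks covered all of them together with the whole gene. The Spin1 peak chr17:45599249-45602323 was 3075 bp wide, at the 77.1th percentile, with a score of 1495.9. The H3K4me3 peak chr17:45598032-45602419 was 4388 bp wide, at the 75.2th percentile, with a score of 3100. From the RefSeq Select start, Spin1 reached 256 bp upstream and 2818 bp downstream. The downstream part ran into the promoter of *Slc29a1*, a nucleoside transporter gene on the same strand with a start 2449 bp away, so that the peaks cannot be assigned to *Mymx* alone. The flanks of *Mymx* were crowded, with 7 further Spin1 peaks, of which 5 overlapped the promoters of *Nfkbie*, *Slc35b2*, *Hsp90ab1* and *Slc29a1*. The other two, chr17:45580783-45581517 downstream and chr17:45619196-45619936 upstream, had scores of 103.87 and 137.11, and both overlapped H3K4me3.

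Of the 5 adhesion genes *Jam2*, *Jam3*, *Kirrel*, *Nphs1* and *Cdh2*, only *Nphs1* lacked both peaks at its start. *Jam2* and *Jam3* encode junctional adhesion molecules of the immunoglobulin superfamily that bind each other across cells. *Jam2* starts at position 84774123 of chromosome 16, on the plus strand. Its Spin1 peak chr16:84773912-84775897 was 1986 bp wide, at the 36.7th percentile, with a score of 2223.66. The H3K4me3 peak chr16:84772942-84777218 was 4277 bp wide, at the 73.5th percentile, with a score of 3100. The mark was therefore 2.15 times as wide as the Spin1 peak. No other peak of either kind was found within *Jam2*, a gene of 52.3 kb, and of the 3 Spin1 peaks in its flanks, those at *Mrpl39* and at the shared promoter of *Atp5j* and *Gabpa* belonged to other starts. The third, chr16:84838539-84839219, had a score of 103.91 and no H3K4me3.

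*Jam3* starts at position 27155421 of chromosome 9, on the minus strand. The Spin1 peak chr9:27153261-27155949 was 2689 bp wide (65.4th percentile) and the H3K4me3 peak chr9:27152998-27156034 was 3037 bp wide (43.6th percentile), both with a score of 3100. The ratio of the widths, 1.13, was the smallest among the members. In contrast to *Jam2*, *Jam3* had further peaks in intron 1. A Spin1 peak of 1789 bp with a score of 523.82 lay at chr9:27147335-27149123, centered 7.19 kb from the start. It sat wholly under an H3K4me3 peak of 4236 bp, chr9:27146359-27150594, with a score of 3100. This was the only H3K4me3 peak with that score inside a fusion gene and outside its promoter. Weaker Spin1 peaks, with scores of 109.72 and 119.50, lay 4.49 and 2.60 kb from the start. In the upstream flank, away from any curated promoter, Spin1 (chr9:27191837-27192640, score 225.59) and H3K4me3 (score 2202.71) were found together.

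*Kirrel* encodes a homolog of the insect adhesion proteins that mark founder cells in fly muscle. It starts at position 87174537 of chromosome 3, on the minus strand. The Spin1 peak chr3:87171484-87175215 was 3732 bp wide and the H3K4me3 peak chr3:87168099-87175828 was 7730 bp wide, both with a score of 3100. The H3K4me3 peak was the widest at a curated start among the members and stood at the 96.8th percentile, and the Spin1 peak stood at the 88.3th. The mark extended 6438 bp into intron 1, which is 3385 bp beyond the end of Spin1. The 150 bases before the start held 14 CpG dinucleotides, the most among the sequences available, and are shown as an example of a start with both peaks. They were taken from RefSeq (GRCm38.p6, minus strand, chr3:87174538-87174687), are written 5′ to 3′ and end at the base before the start, and capitals mark CpG in this and the sequences that follow.
Kirrel: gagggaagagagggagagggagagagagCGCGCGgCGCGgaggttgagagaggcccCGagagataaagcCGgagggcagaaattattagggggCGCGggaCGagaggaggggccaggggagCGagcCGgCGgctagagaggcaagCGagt

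*Nphs1* encodes nephrin, the counterpart of the fly adhesion protein that fusing cells carry opposite founder cells, and is best known from the filtration barrier of the kidney. Neither Spin1 nor H3K4me3 was found within 1 kb of its start at position 30460058 of chromosome 7. H3K4me3 without Spin1 was found far inside the gene, at chr7:30477247-30478647 in intron 23 with a score of 856.54 and at chr7:30484536-30485272 in intron 28 with a score of 425.9. *Kirrel2* starts 2543 bp away on the opposite strand and had a narrow H3K4me3 peak of 995 bp with a score of 207.99 and no Spin1. The 3 Spin1 peaks in the flanks of *Nphs1* all overlapped promoters of other genes, *Nfkbid*, *Aplp1* and *Arhgap33*. The 150 bases before the *Nphs1* start (GRCm38.p6, plus strand, chr7:30459908-30460057) held 4 CpG dinucleotides and are shown as a start without peaks.
Nphs1: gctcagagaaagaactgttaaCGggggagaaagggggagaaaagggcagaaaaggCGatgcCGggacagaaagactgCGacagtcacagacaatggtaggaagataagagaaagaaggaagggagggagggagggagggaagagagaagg

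*Cdh2* encodes N-cadherin, a calcium-dependent adhesion protein of myoblasts, and starts at position 16809246 of chromosome 18, on the minus strand. It had the widest Spin1 peak at a curated start among the members, chr18:16806218-16810408, with 4191 bp, a score of 3100 and the 93.3th percentile. The H3K4me3 peak chr18:16804950-16810658 was 5709 bp wide, at the 89.7th percentile, also with a score of 3100. Spin1 reached 1162 bp upstream here, which was farther than at any other member. Although *Cdh2* is the longest of the genes, with 220.4 kb, only 1 additional Spin1 peak was called in it, 3.60 kb from the start with a score of 108.24.

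*Dysf* and *Myof* encode the ferlins dysferlin and myoferlin, large membrane proteins with C2 domains. *Dysf* has curated starts at positions 84008598 and 84019386 of chromosome 6, on the plus strand, and the peaks differed between them. At the upstream start, the Spin1 peak chr6:84008267-84009571 was 1305 bp wide with a score of 858.72. This was the narrowest and lowest-scoring Spin1 peak over a start in the set, at the 12.1th percentile of widths. The H3K4me3 peak there, chr6:84007935-84011513, was 3579 bp wide with a score of 3100, or 2.74 times as wide. At the downstream start, which is the RefSeq Select start, an H3K4me3 peak of 3143 bp with a score of 3100, chr6:84018531-84021673, had no Spin1 peak beside it.

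The downstream *Dysf* start thus had an H3K4me3 peak of average width, at the 46.8th percentile, and no Spin1. Among 9417 protein-coding starts with an H3K4me3 peak at least 3143 bp wide, 293 (3.11%) had no Spin1 peak. Of 592 genes whose outermost starts with the mark lay over 5 kb apart, 265 (44.8%) had Spin1 at some marked starts and not at others. The starts that differed did not themselves have to lie over 5 kb apart. Deeper in *Dysf*, an H3K4me3 peak of 1488 bp with a score of 2431.01 lay in intron 22, 86.3 kb from the downstream start, again without Spin1. In total, *Dysf* had 1 Spin1 peak and 5 H3K4me3 peaks. The 150 bases before each start are shown for comparison. The upstream sequence (GRCm38.p6, plus strand, chr6:84008448-84008597) held 8 CpG dinucleotides and the downstream sequence (chr6:84019236-84019385) held 7, with 61.3% and 62.0% of G and C.
Dysf, upstream start: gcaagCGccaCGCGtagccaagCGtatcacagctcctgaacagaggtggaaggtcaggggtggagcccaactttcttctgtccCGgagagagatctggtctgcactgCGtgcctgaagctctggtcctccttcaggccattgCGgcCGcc
Dysf, downstream start: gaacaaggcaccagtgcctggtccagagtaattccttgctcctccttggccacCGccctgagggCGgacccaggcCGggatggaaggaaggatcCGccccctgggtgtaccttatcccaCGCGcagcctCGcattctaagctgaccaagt

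*Myof* starts at position 38043577 of chromosome 19, on the minus strand. The Spin1 peak chr19:38040116-38043735 was 3620 bp wide (86.8th percentile) and the H3K4me3 peak chr19:38039342-38044614 was 5273 bp wide (86.3th percentile), both with a score of 3100. The peak was the most one-sided of the Spin1 peaks, with 158 bp upstream of the start and 3461 bp downstream. *Myof* also had more peaks inside the gene than any other member, 7 of Spin1 and 11 of H3K4me3. The strongest of the former, chr19:38037482-38039293 with a score of 452.48, lay 5.19 kb from the start in intron 1. Also in intron 1, Spin1 peaks with scores of 266.35 and 115.25 lay 10.4 and 17.2 kb from the start, and all 3 overlapped H3K4me3. Peaks in intron 3 with scores of 199.78 and 106.20, at 38.7 and 41.6 kb, did not overlap the mark. Of the pair at 86.0 and 87.2 kb, in introns 21 and 22, with scores of 160.42 and 141.65, only the farther one did. Upstream of *Myof*, a Spin1 peak with a score of 2179.39, chr19:38053826-38056412, lay at the promoter of *Cep55* under an H3K4me3 peak with a score of 3100. The 150 bases before the start (GRCm38.p6, minus strand, chr19:38043578-38043727) held 7 CpG dinucleotides at 46.7% of G and C.
Myof: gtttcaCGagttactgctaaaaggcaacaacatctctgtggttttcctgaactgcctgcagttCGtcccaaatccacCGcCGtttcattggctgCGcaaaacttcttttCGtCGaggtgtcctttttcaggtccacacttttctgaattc

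*Cdon* encodes a cell surface receptor of the immunoglobulin superfamily that promotes myogenic differentiation. Its curated start at position 35452076 of chromosome 9 had neither peak within 1 kb. At 30.5 kb upstream of it, however, lay the most upstream start of the transcripts that RefSeq predicts for *Cdon*, position 35421528. The Spin1 peak chr9:35421085-35428442 covered this start with 7358 bp and a score of 3100, and just 42 of the 17106 Spin1 peaks were wider. The H3K4me3 peak chr9:35420171-35429256 was 9086 bp wide with a score of 3100, and 191 of 30763 were wider. All 10 predicted RefSeq transcripts and 4 of the 6 GENCODE transcripts of *Cdon* had both peaks within 1 kb of their start. The absence of *Cdon* from the occupied genes therefore depended on the curated transcript, and with predicted transcripts 9 of 10 genes had both peaks. The share over all protein-coding genes was not computed with predicted transcripts. The only peak between the curated start and the end of *Cdon* was an H3K4me3 peak with a score of 194.45 in intron 7. The 150 bases before the curated start (GRCm38.p6, plus strand, chr9:35451926-35452075) held 1 CpG dinucleotide.
Cdon, curated start: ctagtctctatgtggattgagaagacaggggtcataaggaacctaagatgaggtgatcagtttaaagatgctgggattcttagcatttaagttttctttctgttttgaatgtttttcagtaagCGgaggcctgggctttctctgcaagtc

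The peaks over the starts of the fusion genes were compared with those of all protein-coding genes by their reach on each side. The downstream extents of *Mymx* run into the promoter of *Slc29a1* and cannot be assigned to *Mymx* alone. In all 8 occupied genes, the Spin1 peak over the start lay mostly downstream of it, from 973 bp in *Dysf* to 3461 bp in *Myof*, compared with 158 to 1162 bp upstream. Across 11278 RefSeq Select starts of protein-coding genes covered by Spin1, the median extents were 771 bp upstream and 1419 bp downstream. A longer downstream part was thus also the median pattern of all genes. Upstream, 7 of the 8 fell short of this median, with the exception of *Cdh2*. Downstream, 7 of the 8 exceeded it, with the exception of *Dysf*. *Myof* stood at the 3.38th percentile of upstream extents and at the 96.9th of downstream extents. H3K4me3 was longer than the median downstream in all 8 genes, with 2423 to 6438 bp against a median of 2016 bp over 13779 starts, but shorter than the median of 1050 bp upstream in 5 of them. *Mymk* and *Mymx* had the shortest upstream parts of the mark, 325 and 352 bp, at the 3.17th and 3.80th percentiles.

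**Figure D2:**
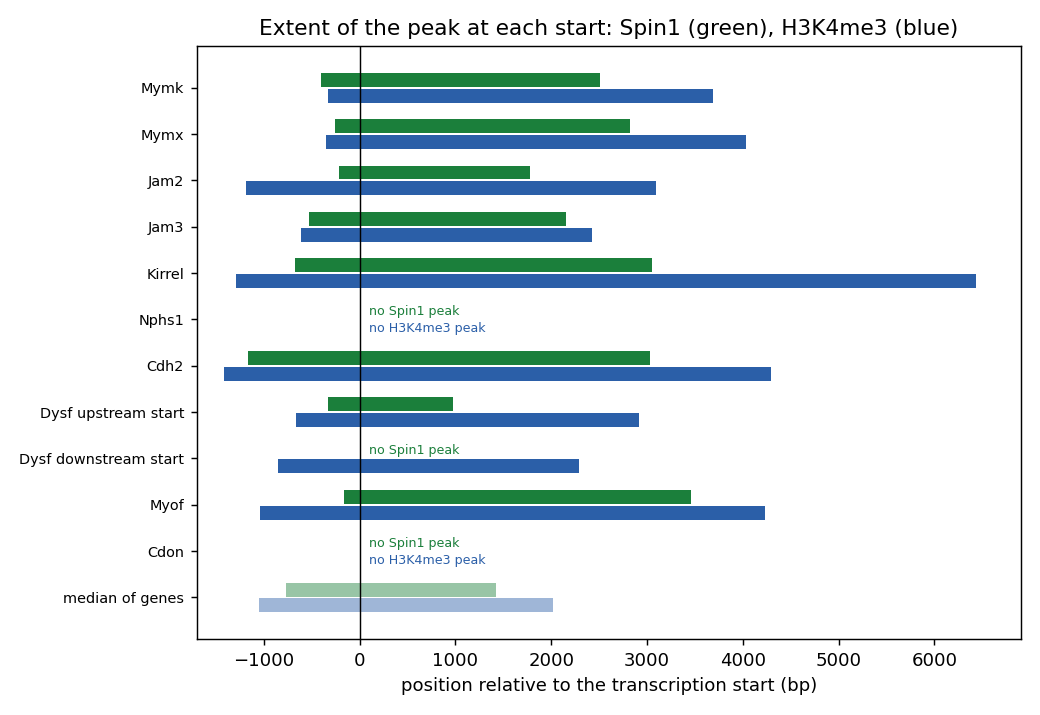
Extent of the Spin1 peak (green) and the H3K4me3 peak (blue) in bp upstream (negative) and downstream (positive) of the start, for each fusion gene and for both curated starts of *Dysf*; starts other than that of *Dysf* are those of the RefSeq Select transcripts. The pale bars give the median extents over protein-coding genes; all green bars reach farther to the right of the start than to the left, and Spin1 passes beyond H3K4me3 only at *Mymk*.

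The widest Spin1 peak per gene had a median width of 2994 bp over the 8 genes (range 1305 to 4191 bp), and 2295 bp over all 11911 protein-coding genes with a peak. For H3K4me3 the medians were 4332.5 bp (range 3037 to 7730 bp) and 3250 bp, the latter over 14281 genes. A list of 55 other fusion-related genes was drawn from processes such as cell adhesion, phosphatidylserine signaling, actin remodeling and membrane repair. It was chosen by process, not by a known role of each gene in fusion. Its medians were 2916 bp for Spin1 (47 genes) and 4487 bp for H3K4me3 (51 genes). Promoter occupancy in this list was 85.5% for Spin1 and 92.7% for H3K4me3, compared with 56.7% and 68.0% of all protein-coding genes. The difference was not tested. The 4 genes of the list with H3K4me3 only were *Kirrel2*, the adhesion G protein-coupled receptor genes *Adgrb1* and *Adgrb3*, which bind or signal at the cell surface, and *Capn3*, a muscle calpain. The 4 with neither peak were *Stab2*, a phosphatidylserine receptor, and the ferlin genes *Otof*, *Fer1l5* and *Fer1l6*. Among the ferlins, *Dysf* and *Myof* thus differed from these 3. Of the myogenic regulatory factor genes, 3 of 4 had both peaks, compared with 56.7% of all protein-coding genes, and *Myf6* had H3K4me3 only. None of 9 genes for sarcomeric myosin heavy chains, proteins of the differentiated fiber, had Spin1 at the promoter, and *Myh1*, *Myh3* and *Myh8* had H3K4me3.

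The starts of *Mymk* and *Mymx* differed from those of the other occupied genes in base composition. The observed over expected CpG ratio in the 1000 bases around the start is close to 1 where CpG is not depleted and low where CpG has been lost. It was 0.131 at the main start of *Mymk* and 0.288 at that of *Mymx*, the 10.6th and 28.5th percentiles of protein-coding starts. The other occupied starts had ratios of 0.578 (*Jam2*), 0.583 (*Dysf*, upstream), 0.616 (*Myof*), 0.647 (*Kirrel*), 0.746 (*Jam3*) and 0.870 (*Cdh2*). Over all protein-coding genes, the median ratio was 0.758 at starts with both peaks, 0.536 at starts with H3K4me3 only and 0.177 at starts with neither. The downstream start of *Dysf*, with H3K4me3 only, had 0.464, and the bare starts of *Nphs1* and *Cdon* had 0.262 and 0.124. At the predicted upstream start of *Cdon* the ratio was 0.865.

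Peaks of both kinds were rare at starts as poor in CpG as that of *Mymk*. Of 2217 starts with a ratio no higher than that of *Mymk*, 62 (2.80%) had H3K4me3 and 23 (1.04%) had both peaks. Of 5979 starts with a ratio no higher than that of *Mymx*, 259 (4.33%) had both. The peaks over *Mymx* also meet the promoter of *Slc29a1* and cannot be assigned to *Mymx* alone. Where the mark was present, Spin1 was found with it at 37.1% of the former starts and at 44.4% of those up to the ratio of *Mymx*, compared with 83.0% of all 14089 starts with the mark. Among the 23 CpG-poor genes with both peaks, *Mymk* had the third widest Spin1 peak, after *Anxa1* (3724 bp) and *Tnnc1* (3310 bp, a peak that also meets the promoter of *Nisch*). *Anxa1*, an annexin of membrane repair, also belongs to the list of other fusion-related genes.

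**Figure D3:**
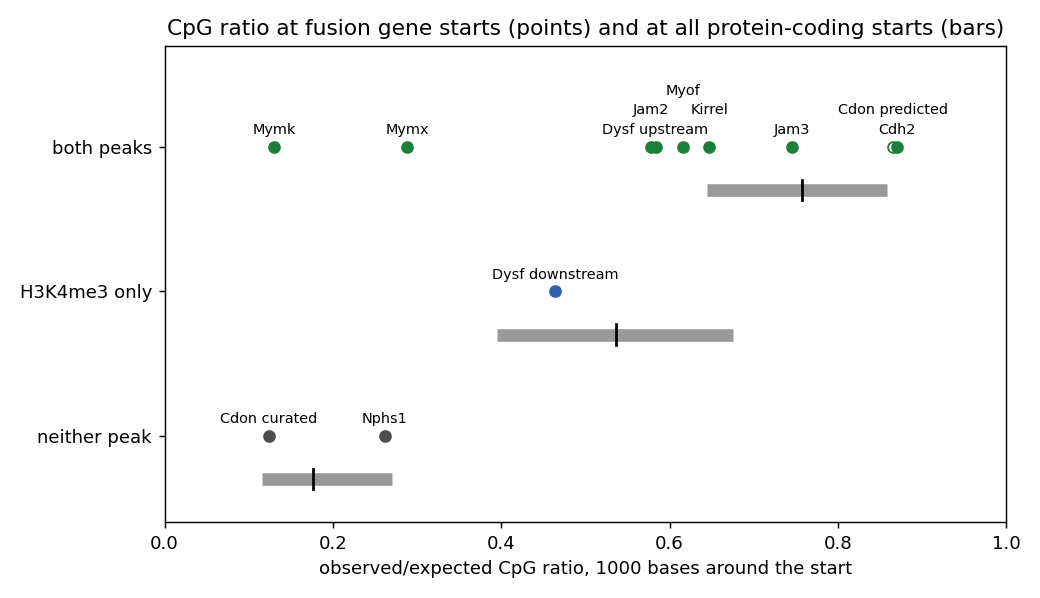
Observed over expected CpG ratio in the 1000 bases around the RefSeq Select start of each fusion gene (points), arranged by the peaks found at that start. The upstream start of *Dysf* and the predicted start of *Cdon* (open point) are also plotted, and the other curated starts of *Mymk* and *Mymx* are not. Grey bars span the middle 50% of all protein-coding starts of the same class and black lines their medians of 0.758, 0.536 and 0.177; *Mymk* and *Mymx* lie far to the left of the bar for starts with both peaks.

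E-boxes, the sites bound by myogenic bHLH factors, have the letters CANNTG. In the window from 250 bases before to 50 after the RefSeq Select start, read on both strands, 5 of 10 fusion genes had at least 1 E-box, compared with 67.8% of protein-coding promoters. The matches were 5 in *Mymk*, 4 in *Mymx* and 1 each in *Jam2*, *Jam3* and *Dysf*. The form CAGCTG, which is its own reverse complement, was found 2 times in *Mymk*, 2 times in *Mymx* and once in *Jam2*, and is present in 15.2% of promoters. CAGGTG or its reverse complement CACCTG was found in *Mymx* and *Jam3*, and is present in 19.3% of promoters. Both forms are included in the E-box count. These matches are letters in a window and not measured binding.

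Outside the promoters, Spin1 was found inside *Jam3* (3 peaks), *Kirrel* (4), *Myof* (7) and *Cdh2* (1). These are 4 of the 7 fusion genes of at least 50 kb, compared with 21.8% of all 4667 protein-coding genes of that length. H3K4me3 was found inside 6 of the 7, compared with 47.6%, and *Jam2* was the exception. The genes compared were not matched for promoter peaks or for length beyond 50 kb, and neither difference was tested. All 15 Spin1 peaks had their centers in introns, 11 of them in intron 1. They lay between 2.60 and 87.2 kb from the nearest curated start, and their scores, from 101.67 to 765.72 with a median of 142.42, were all below those of the peaks over the starts. The highest belonged to *Kirrel*, at chr3:87149795-87152120 in intron 1, 23.6 kb from the start. A second *Kirrel* peak at 16.7 kb had a score of 455.71, and the pair overlapped H3K4me3 peaks with scores of 1774.53 and 1280.95. The other *Kirrel* peaks, at 15.1 and 29.8 kb, had scores of 142.42 and 101.67, and the nearer one overlapped the mark.

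Of the 15 peaks, 11 overlapped H3K4me3 and 4 did not. Among 2744 Spin1 peaks inside protein-coding genes and outside all promoters, 74.5% overlapped the mark, close to the 73.3% in the fusion genes. The 4 without it, 1 in *Kirrel* and 3 in *Myof*, lay 29.8 to 86.0 kb from the start. Their median score of 133.31 was close to the 142.42 of the 11 with it, but their highest was 199.78, against 765.72. Over all protein-coding genes, the medians of such peaks were 116.66 without the mark and 152.65 with it. The 31 H3K4me3 peaks inside the genes had scores from 50.61 to 3100 with a median of 194.45. Of them, 9 (29.0%, Wilson interval 16.1 to 46.6%) overlapped Spin1, compared with 15.1% of 8211 such peaks over all protein-coding genes. All 9 lay in *Jam3*, *Kirrel* and *Myof*. Peaks of the same gene are not independent, so that the interval is too narrow to judge this difference, which was not tested. The *Dysf* peak in intron 22, with a score of 2431.01, had no Spin1 and was exceeded only by the *Jam3* peak in intron 1, which had.

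**Figure D4:**
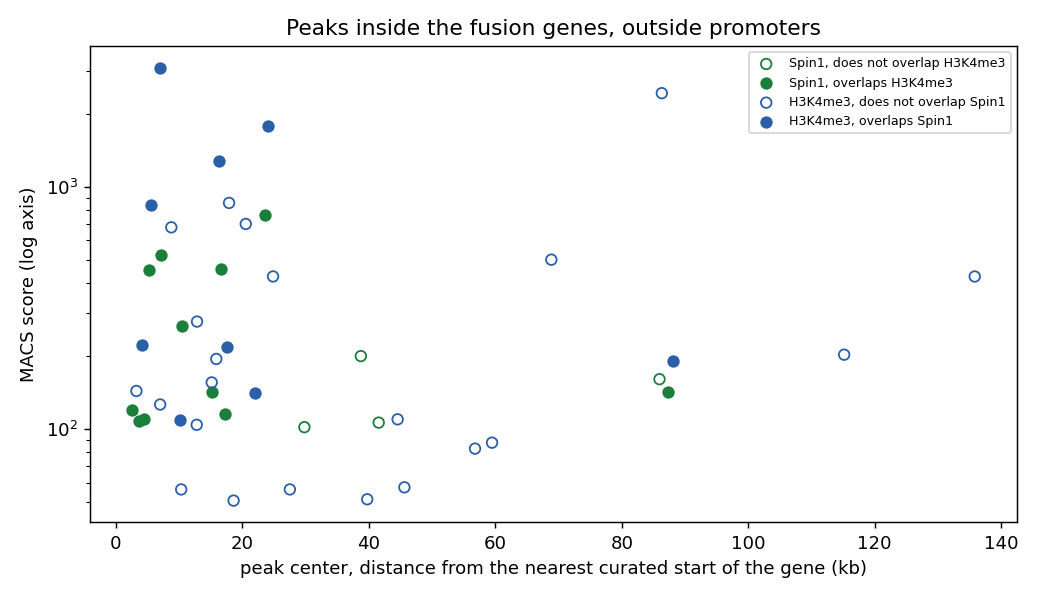
MACS score (log axis) against the distance in kb of the peak center from the nearest curated start, for the 15 Spin1 peaks (green) and 31 H3K4me3 peaks (blue) inside the fusion genes and outside their promoters. Filled points overlap a peak of the other list and open points do not; the 4 open green points have scores below 200, and the open blue point above 2000 is the *Dysf* peak.

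Counted over the 10 genes with their flanks, there were 40 Spin1 peaks, 9 at promoters, 15 inside the genes and 16 in the flanks. Of these 40, 35 overlapped an H3K4me3 peak (87.5%, 95% Wilson confidence interval 73.9 to 94.5%). In the opposite direction, 31 of 67 H3K4me3 peaks overlapped a Spin1 peak (46.3%, 34.9 to 58.1%). Over the whole lists, the same shares were 91.3% for Spin1 and 46.5% for H3K4me3, and both values lie within the intervals of the fusion loci. The intervals cover counting error only, and peaks of the same gene are not independent. All 9 promoter peaks of Spin1 overlapped the mark. This is the usual state, since 11903 of the 11911 protein-coding genes with Spin1 at the promoter also had H3K4me3 there. Of the 16 flanking Spin1 peaks, 11 overlapped promoters of other genes, and the pair of peaks upstream of *Cdon* was the widest of each kind that did not.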

How the data were processed

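Spin1 and H3K4me3 ChIP-seq peaks of primary myoblasts were used. The authors aligned the paired reads (bowtie 2, mm10), called peaks over input with MACS 1.4.2 and kept those with a false discovery rate of at most 1%. They deposited the position of each peak and a score, the negative log10 of its p-value multiplied by 10. Libraries were amplified with 12 PCR cycles.

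Deposited starts count from 0 and were raised by 1. Peaks were intersected with curated transcripts of RefSeq annotation release 108.20200622 (GRCm38.p6). An overlap of 1 bp counted. A peak that met TSS±1 kb of any curated transcript of the gene was assigned to its promoter. Others were assigned to the gene where they overlapped it, and otherwise to the flank. Introns were assigned by the center of the peak. The widest peak represented a start. No test was made, because each antibody had 1 library. CpG ratios and motifs were read from the same assembly, and 5 of 10 genes matched the RefSeq promoter table, which gave the sequences.

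The text names all 10 genes with every promoter peak and their Spin1 peaks elsewhere. It also names the other fusion-related genes that lack Spin1, and neighbors whose promoters overlap a peak. The genes and lists were chosen with earlier results of these data known. The extents of peaks, the comparison of CpG-poor starts and the overlap of the whole lists were added after the data were seen. Alternatives were other promoter windows, transcript sets, flanks, score limits and overlap rules. Intersections were tested on simulated peaks. Python 3.11.15, NumPy 2.4.6, pandas 2.3.3, pysam 0.24.0, statsmodels 0.14.6, samtools 1.23.1 and matplotlib 3.10.9 were used.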

Additional observations from a re-analysis of the deposited data

How the results depend on the processing

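Of 52 alternative values computed, 43 were within 1.5 times the reported count. When the center of the peak had to lie in TSS±1 kb, 4 fusion genes had Spin1 and 4 had H3K4me3. Both peaks were found at 3 fusion genes (*Dysf*, *Jam2* and *Jam3*) and at 22 of the other fusion-related genes. The centers of several wide peaks lie more than 1 kb downstream of the start. With the 50% of peaks that had the highest scores, 14 Spin1 peaks and 25 H3K4me3 peaks remained in the 10 loci, and all 14 Spin1 peaks overlapped the mark. With flanks of 100 kb, 53 Spin1 peaks overlapped H3K4me3. In windows of 1 kb on each side of the start, all 10 genes had an E-box, as did 99.9% of protein-coding starts.

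Under the other choices, 7 to 9 fusion genes had both peaks. Except for the E-boxes, shares over all protein-coding genes or all peaks were not recomputed under any of these choices. The counts under them therefore cannot be set against the shares given above. *Dysf* was lost with 1 TSS per gene and with the highest-scoring 50% of peaks, and *Cdon* was gained with predicted transcripts or GENCODE M21 transcripts, under which *Nphs1* also had H3K4me3. The use of GENCODE and of the span of the RefSeq gene record was chosen after seeing the data. No paired analysis was possible because each antibody had 1 library. The depth of the libraries is unknown, so that weak peaks may be missing from either list, and a start without a peak is one at which none was called.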
